A study of Cicer arietinum with 4 samples.

Results

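AGPS2 and ALDC are 2 of the 28783 genes listed for chickpea ovules (Cicer arietinum is a seed legume). They were chosen by their gene symbols, with earlier results of these data known. RNA sequencing was done on total RNA of pre-fertilized ovules, taken from closed buds, and post-fertilized ovules, taken from half-opened flowers, both of the cultivar ICC4958. Each group has 2 libraries, named bud A and bud B before and flower A and flower B after fertilization, and the letter carries no order. The stage of the flower differs together with fertilization, so their effects cannot be told apart. Nothing in the labels says whether the libraries of a group came from separate plants, so the spread between these libraries may be technical. The p-values of limma rest on that spread, drawn in part from the gene itself and in part from other genes. No treatment, age or hour of sampling is given for either group.

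Both symbols stand for enzymes of carbon metabolism. AGPS2, also listed as CagpS2, is the symbol of a small subunit of ADP-glucose pyrophosphorylase. That enzyme is built of small and large subunits and makes ADP-glucose, the sugar donor for starch, in a step that commits glucose to starch and is controlled by metabolites. ALDC is taken here as the cytosolic fructose-bisphosphate aldolase, which splits a hexose bisphosphate into a pair of triose phosphates in glycolysis and runs backwards on the way to sucrose. Ovules and young seeds import sucrose, which feeds both routes. The gene tables give symbols without product names, so these roles rest on the symbols.

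AGPS2 was the member that changed past the test, and its level was 1.77-fold higher after fertilization. Its level was 29.0 FPKM (a count of sequenced fragments divided by transcript length and by library size) in bud A and 25.3 FPKM in bud B, against 44.2 FPKM in flower A and 52.1 FPKM in flower B. Both libraries after fertilization lay above both before it, and the lowest of the former exceeded the highest of the latter by 15.2 FPKM. Of all tested genes 39.3% were higher after fertilization without overlap. Any library after fertilization was between 1.53 and 2.06 times any library before it, while libraries of 1 group differed by 1.14-fold before and 1.18-fold after fertilization. In such bulk RNA, a change in the share of a cell type and a change in RNA per cell cannot be told apart. The mean rose from 27.1 ± 2.59 to 48.1 ± 5.60 FPKM (SD, n = 2). On the log2(FPKM + 1) scale, which slightly understates folds, the change was 0.80 with an SE of 0.13 and a 95% interval of 0.45 to 1.16. It passed limma's test across 17849 genes at a threshold of 0.05 (adjusted p = 0.0155). Of all tested genes 36.5% passed that threshold in either direction and 21.0% passed it with a rise, so a call of this kind was common in this comparison. With 2 libraries a group, an exact two-sided permutation test over the libraries cannot go below p = 0.333, which is the value it gave.

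Leaving out either pre-fertilization library removed most calls of the whole comparison, the share of tested genes called falling from 36.5% to 4.46% without bud A and to 3.76% without bud B. AGPS2 was among the genes that lost the call. Without bud A it was lost at a larger change (log2 fold change 0.90, limma adjusted p = 0.0900), and without bud B at a smaller one (0.71, limma adjusted p = 0.118). These fits take a gene's own spread from the post-fertilization libraries and assume that the single pre-fertilization library varies as they do.

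ALDC was the far more abundant transcript and did not pass the test. Its level was 701 FPKM in bud A, 807 FPKM in bud B, 1063 FPKM in flower A and 907 FPKM in flower B. The groups did not overlap here either, with a gap of 101 FPKM between bud B and flower B, as was the case for the 39.3% of tested genes given above. The mean was 754 ± 74.5 FPKM before and 985 ± 110 FPKM after fertilization (SD, n = 2), a ratio of 1.31. Between single libraries the ratio ran from 1.12 to 1.52, against 1.15 between the libraries before and 1.17 between those after fertilization. The log2 difference was 0.38 with an SE of 0.19, and its 95% interval of -0.12 to 0.89 holds both no change and a rise as large as that of AGPS2 (limma adjusted p = 0.177). The exact two-sided permutation test again gave p = 0.333, the smallest value open to it.

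**Figure D1:**
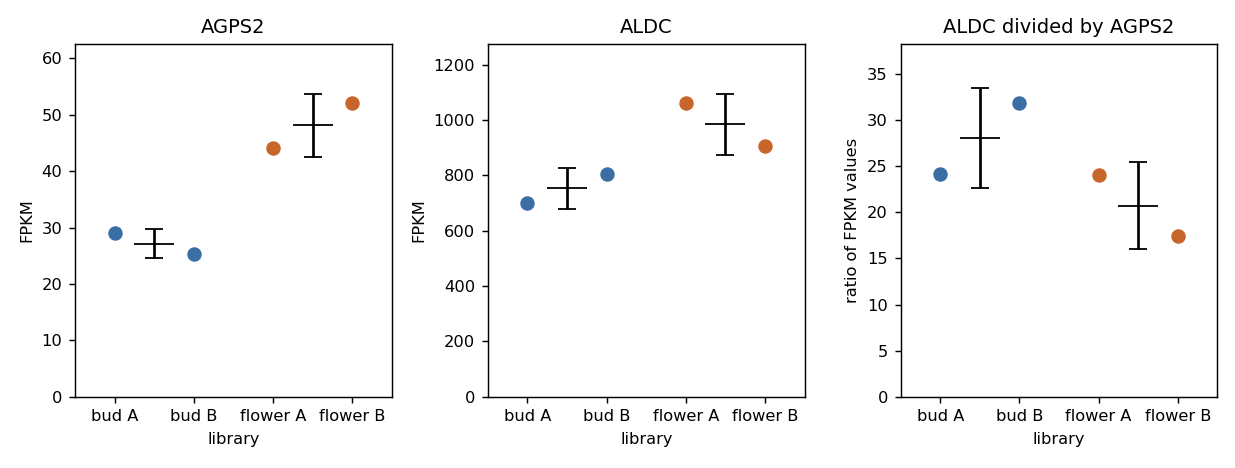
FPKM of AGPS2 (left) and ALDC (middle) and the ratio of ALDC to AGPS2 (right) in each library; blue points are libraries before and orange points libraries after fertilization, and black marks are group means with SD (n = 2). AGPS2 sits at 25.3 and 29.0 FPKM before and at 44.2 and 52.1 FPKM after fertilization, ALDC at 701 and 807 against 1063 and 907 FPKM, and the ratios of bud A and flower A almost meet.

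The 2 genes were not at their highest in the same library. AGPS2 was highest in flower B and lowest in bud B, whereas ALDC was highest in flower A and lowest in bud A. Within a library the ratio of ALDC to AGPS2, which no scaling of that library can move, was 24.2 in bud A, 31.9 in bud B, 24.1 in flower A and 17.4 in flower B. The ratio averaged 28.0 ± 5.42 before and 20.7 ± 4.69 after fertilization (SD, n = 2), and bud A and flower A differed by only 0.159. The log2 ratio differed by -0.44 between the groups (exact two-sided permutation p = 0.333, n = 2 libraries a group, the smallest possible), and by -0.67 to -0.21 when 1 library was left out. That AGPS2 passed the test and ALDC did not is therefore not shown to be a difference between the genes.

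The 2 enzymes stood at very different places in the order of transcripts. Counted from the highest of 28783 genes, AGPS2 was number 4336 in bud A, 4888 in bud B, 2983 in flower A and 2632 in flower B. It thus moved from the top 15.1% and 17.0% of genes to the top 10.4% and 9.14%. ALDC was number 197 in bud A, 194 in bud B, 143 in flower A and 213 in flower B, within the top 0.740% in every library. Among the 22940 genes that RefSeq lists as protein-coding, ALDC held place 55 in bud A, 43 in bud B, 26 in flower A and 31 in flower B. AGPS2 held places 4005 and 4535 before and 2661 and 2259 after fertilization in the same list. In flower B the place of ALDC among all genes was its lowest while its place among protein-coding genes was not. Genes spanning under 300 bp made up 82.1% of the summed FPKM in that library, against 62.5% in bud A, 68.8% in bud B and 71.8% in flower A.

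**Figure D2:**
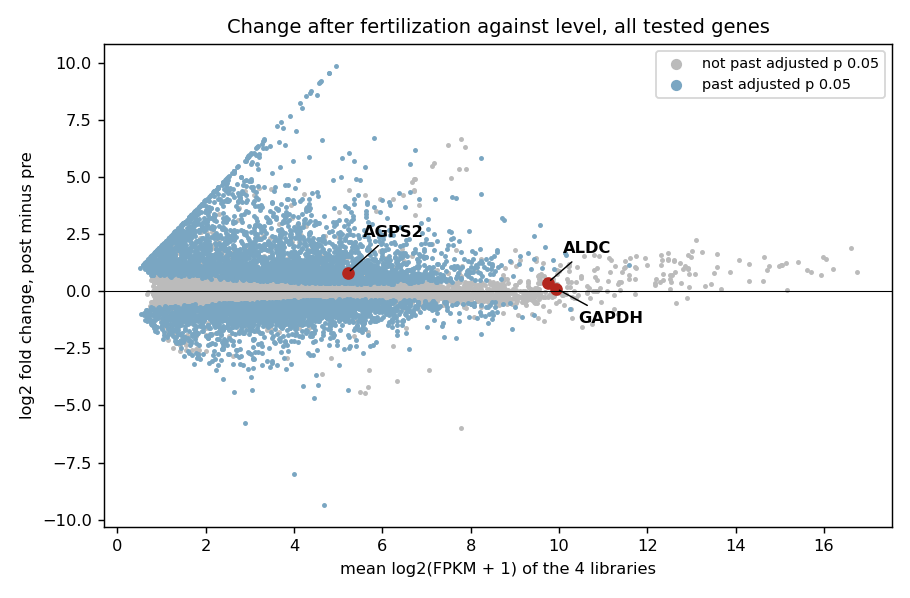
Log2 fold change (post minus pre, log2(FPKM + 1) scale) against mean log2(FPKM + 1) for the 17849 tested genes, with genes past limma's adjusted p of 0.05 in blue and the others in grey. AGPS2, at a change of 0.80, lies among called genes of its level, while ALDC at 0.38 and GAPDH at 0.13 lie among abundant genes that were mostly not called.

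Set against genes of its own level, the rise of AGPS2 was above most, as was its spread within groups. Of 2999 other protein-coding genes with a mean within 1.5-fold of its own, 724 (24.1%) rose past the threshold, and 444 (14.8%) had a larger log2 fold change. The spread of AGPS2 within groups was larger than that of 64.1% of these genes. Of 82 protein-coding genes within 1.5-fold of the mean of ALDC, 12 (14.6%) rose past the threshold and 14 (17.1%) had a larger log2 fold change. The spread of ALDC within groups was larger than that of 56.1% of these genes. Among those 82 genes 12 rose and 2 fell past the threshold. The smallest absolute log2 fold change called there was 0.77, about 2 times that of ALDC. Among the genes at the level of AGPS2, where 724 rose and 532 fell past the threshold, it was 0.33. A minimum over more called genes tends to be lower, so these 2 values cannot be compared. Over all tested genes, 17.3% had a larger log2 fold change than AGPS2 and 30.0% a larger one than ALDC.

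Few other enzymes of starch, sucrose and glycolysis can be named in these data. Of 29 symbol stems searched, from starch synthesis to the end of glycolysis, only those of 6 genes were found, AGPS2 and ALDC included. GAPDH, the glycolytic glyceraldehyde-phosphate dehydrogenase that uses a product of aldolase and is often taken as a control gene, was at 881 FPKM in bud A, 1001 FPKM in bud B, 1018 FPKM in flower A and 1032 FPKM in flower B. Its libraries after fertilization were the higher ones by a narrow margin, and it did not pass (log2 fold change 0.13, 95% interval -0.36 to 0.61, limma adjusted p = 0.612). With quantile normalization its log2 fold change was -0.18, and it was -0.04 with libraries scaled to the same protein-coding sum and -0.65 with libraries scaled to the same total. The other 3 genes carry TPI symbols. One of them, LOC101496724, is listed both as tpi2 and as kpi1, so that these symbols are not read here as triose-phosphate isomerase. TPI1 was listed at 0.105 FPKM in bud A and at 0 elsewhere and was not tested. LOC101503302, listed as tpi3, stood at 4.85 ± 0.275 FPKM before and 7.42 ± 2.13 FPKM after fertilization (SD, n = 2; limma adjusted p = 0.136), and LOC101496724 at 0.895 ± 0.260 and 1.26 ± 1.09 FPKM (SD, n = 2; limma adjusted p = 0.753). Of the 4 genes other than AGPS2 and ALDC, 3 were tested and 0 passed limma's test, adjusted or at an unadjusted p under 0.05. Over all tested genes 36.5% passed after adjustment, and 8835 of 17849 were under 0.05 unadjusted, so with 3 genes nothing is read from this count. The log2 fold change of LOC101503302 was 0.50 as reported, 0.76 without flower A and 0.24 without flower B.

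The genes whose profile over the 4 libraries came closest to each member were sought by the distance between log2(FPKM + 1) values, each centred on its own mean. Among tested genes with a symbol the nearest to AGPS2 were PRP1, at a distance of 0.0554, UGT92G3, a UDP-glycosyltransferase by its symbol, at 0.130, and FER3, a ferritin by its symbol, at 0.133. PRP1 was at 91.5 FPKM in bud A, 83.9 FPKM in bud B, 138 FPKM in flower A and 163 FPKM in flower B, the same order of libraries as AGPS2. Only 220 of the 17849 tested genes carry a symbol, tRNA genes left out. Over all tested genes 9 lay closer to AGPS2 than PRP1 did, 113 closer than UGT92G3 and 119 closer than FER3. The nearest without a symbol were LOC101513308 and LOC101491902. For ALDC the nearest with a symbol were LOC101494081, listed as ahc, at 0.142, and SKP1, a part of ubiquitin ligases, at 0.188. LOC101494081 was at 631 FPKM in bud A, 676 FPKM in bud B, 854 FPKM in flower A and 819 FPKM in flower B. LOC101497826 and LOC105852232 were the nearest without a symbol. In all, 101 genes lay closer to ALDC than LOC101494081, and 327 lay closer than SKP1. AGPS2 and ALDC lay 0.598 apart. The genes above were picked as the nearest, so that distance cannot be judged against theirs. With 4 libraries in 2 groups such a distance describes a profile and little more.

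**Figure D3:**
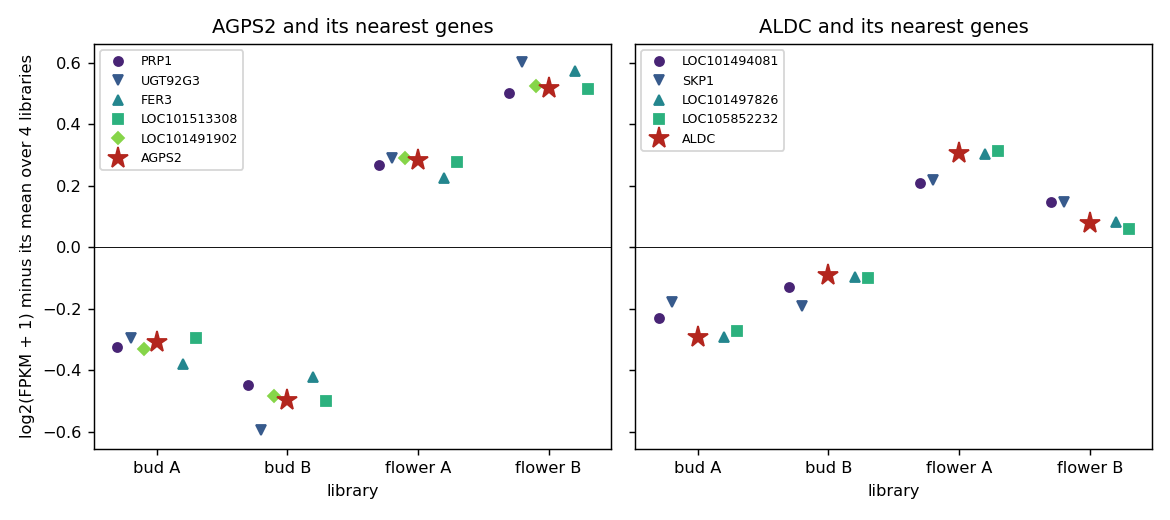
Log2(FPKM + 1) minus its mean over the 4 libraries, by library, for AGPS2 (left, red star) and ALDC (right, red star) with 5 of the nearest genes of AGPS2 and 4 of those of ALDC, symbols offset sideways for sight only. The AGPS2 set is highest in flower B and the ALDC set is highest in flower A.

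On the genome AGPS2 lies on chromosome 2 from 35915305 to 35918303 in the deposited coordinates, whose build is not stated, and spans 2999 bp. ALDC lies on an unplaced sequence from 14012 to 16703 and spans 2692 bp. No listed gene overlaps either of them. The neighbours given here are the nearest listed genes. RefSeq places genes that are not listed here on both sides of AGPS2 and after ALDC. The gene 2594 bp before AGPS2, LOC101499951, was under 1 FPKM in every library and was not tested. The gene 15113 bp after it, LOC101506374, was at 2.998 FPKM in bud A, 3.09 FPKM in bud B, 0.117 FPKM in flower A and 0.0355 FPKM in flower B. It met the filter on low values only through the bud libraries, so no test is given for it. Only 3 genes are listed on the sequence of ALDC. LOC101501154, 4094 bp before ALDC, was at 31.7 ± 1.06 FPKM before and 27.3 ± 6.36 FPKM after fertilization (SD, n = 2; limma adjusted p = 0.365), and LOC101501780 was listed at 0 in every library.

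The scaling of the libraries bears on both members. As deposited, the FPKM values sum to 1483036 in bud A, 1804431 in bud B, 2197998 in flower A and 3574218 in flower B, while the sums over protein-coding genes run only from 532176 to 603117. When all libraries were scaled to the same total, the median change over tested genes went from 0.02 to -0.67 (log2). The change of AGPS2 was then 0.05 (limma adjusted p = 0.947) and that of ALDC -0.39 (limma adjusted p = 0.562). Relative to that median, AGPS2 stood 0.78 higher as deposited and 0.72 higher with equal totals, and ALDC 0.36 and 0.28 higher. With libraries scaled to the same protein-coding sum the changes were 0.64 for AGPS2, which still passed (limma adjusted p = 0.0221), and 0.22 for ALDC. Of all called genes 57.6% rose as deposited, 42.2% with quantile normalization, 42.7% with equal protein-coding sums and 25.8% with equal totals.

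**Figure D4:**
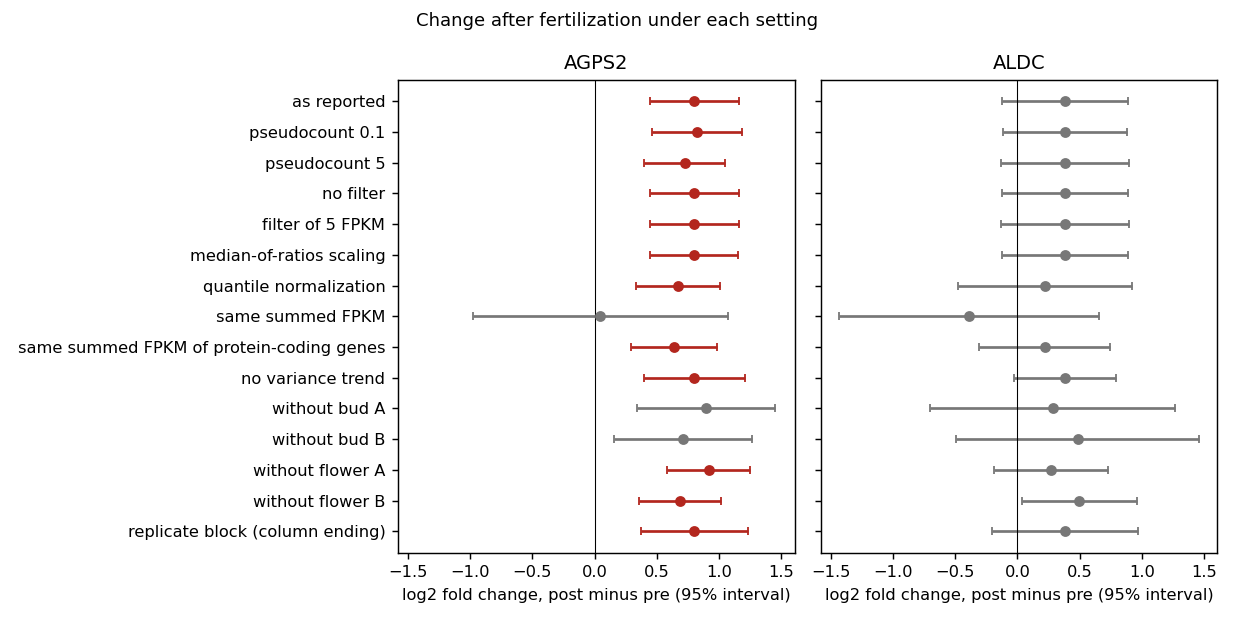
Log2 fold change (post minus pre) of AGPS2 (left) and ALDC (right) with its 95% interval from limma, as reported and under 14 other settings; red marks pass an adjusted p of 0.05 and grey marks do not. AGPS2 passes as reported and under 11 other settings and drops to 0.05 with equal totals, while ALDC passes under none and is below 0 only with equal totals.

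The libraries otherwise grouped by stage. Pearson's r of log2(FPKM + 1) across tested genes, which are not independent replicates, was 0.964 within the pre-fertilization and 0.954 within the post-fertilization group, and 0.812 to 0.858 between groups. Absolute depth is unknown. Relative depth, estimated from what 1 fragment was worth on genes under 0.3 FPKM, was 0.549 of bud A in bud B, 1.01 in flower A and 1.11 in flower B. None of 30 marker symbols for ovule, endosperm, embryo, pollen and green tissue is carried by a gene of the tables, so the tissue could not be checked by them.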

How the data were processed

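Values are FPKM, as deposited by the authors in 1 table of genes by libraries. Per the submitters' processing notes, FastQC, fastp, HISAT2, Cufflinks and Cuffdiff were used, without versions. The genome build, the annotation, how shared reads were counted and whether libraries were scaled to each other: not given in the sources used here. FPKM divides by transcript length so that levels of different genes can be compared. Genes spanning under 300 bp still held 62.5% of the summed FPKM in bud A and 82.1% in flower B. Ranks among all genes are therefore to be read with care. The columns name the group of a library and not its sample number. Biotypes, synonyms and chromosome numbers came from a RefSeq gene table matched by gene number for 25491 genes, whose assembly is another one. Positions and distances are therefore the deposited ones, and only the order of genes was taken from RefSeq.

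The test took genes that reached 1 FPKM in 2 libraries, 17849 in all. The model (limma 3.58.1, R 4.3.3) had group as its only term on log2(FPKM + 1), a variance trend, and 2 residual and 2.55 prior degrees of freedom. Its two-sided p-values carry a Benjamini-Hochberg adjustment over these genes. The script was tested on simulated data with changes larger than those of AGPS2 and ALDC, so that test does not bear on changes of their size. Named were both members, all matched carbon metabolism symbols, the nearest neighbours on each side, and per member the 3 genes with and 2 without a symbol of nearest profile, of which 1 is not reported here. Proteins were not used here, so related genes were not sought by sequence. The members and lists were chosen with earlier results of these data known. Scaling, filter, pseudocount, variance model, libraries and pairing were varied. Figures were drawn with matplotlib 3.10.9.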

Additional observations from a re-analysis of the deposited data

How the results depend on the processing

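With all libraries scaled to the same summed FPKM, the change of AGPS2 was near 0 and not called (log2 fold change 0.047, 95% interval -0.98 to 1.07, limma adjusted p = 0.947). ALDC then turned to -0.39 (limma adjusted p = 0.562). Of the 6 genes matched by a carbon metabolism symbol 0 were then called, against 1 as reported, which was AGPS2 itself. Of these 6 genes, 3 carry TPI symbols, which are not read here as triose-phosphate isomerase. They enter the counts here by symbol only. Without flower A the symbol called besides AGPS2 was LOC101503302, listed as tpi3 (log2 fold change 0.76). That call is therefore not read as a further carbon metabolism enzyme. Over all tested genes 27.9% were called with equal totals and 36.5% as reported. With so few genes nothing is read from this count. Short genes hold most of the summed FPKM. Leaving out 1 library gave log2 fold changes of 0.69 to 0.92 for AGPS2, with the call lost without bud A and without bud B, and of 0.27 to 0.50 for ALDC, never called. It gave 0 to 2 called carbon metabolism symbols and 653 to 7404 called genes in all, with 776 without bud A and 653 without bud B against 6522 as reported. AGPS2 was called under 11 of 14 alternatives (adjusted p 0.00572 to 0.947) and ALDC under 0 of 14 (0.0887 to 0.615). The difference in log2 ratio between ALDC and AGPS2 stayed between -0.67 and -0.21. With a replicate block on the column ending, AGPS2 stayed called (log2 fold change 0.80, limma adjusted p = 0.0323), ALDC did not (limma adjusted p = 0.225), and 5626 genes were called. Deviations of libraries with the same ending correlated at 0.02, so no pairing was read from the endings. The planned counts of genes related by protein sequence were not run. Without flower B the 95% interval of ALDC ran from 0.04 to 0.96, and the call was still missed (limma adjusted p = 0.0887). Absolute depth is unknown, so the part of counting error in these spreads is not given.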
